A study of Mus musculus with 84 samples.

Results

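A set of 8 complement genes was followed here through astrocytes sorted from mice with experimental autoimmune encephalomyelitis (EAE), a model of multiple sclerosis in which an immune response against myelin damages the central nervous system. They are the classical-pathway recognition genes C1qa, C1qb and C1qc, the C1 inhibitor gene Serping1, the central components C4b and C3, the alternative-pathway protease gene Cfb, and the C3a receptor gene C3ar1. The 8 genes were taken from a written list of names, matched by Ensembl identifier, out of 48526 genes in the EAE count table and 25773 in the table of astrocyte subtypes. All 8 passed the filter of at least 10 counts over the 66 EAE libraries, 6 passed it over the 15 libraries of isolated subtypes, and 7 passed it once the 3 cultured libraries were added.

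Complement is a cascade of plasma and tissue proteins. In the classical pathway C1q binds a target, its partner proteases cleave C4 and C2, and the resulting convertase cleaves C3, whose fragments tag surfaces and signal through receptors such as C3ar1. In the healthy brain C1q is known as a product of microglia, whereas astrocytes are known to make C3 and C4, and C4b is widely used as a mark of reactive astrocytes.

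Adult female C57BL/6J mice were immunised with a myelin oligodendrocyte glycoprotein peptide in complete Freund's adjuvant with pertussis toxin and were taken at score 1 (limp tail), score 4 (hind leg paralysis) or in chronic disease. The labels call the other mice of that table controls without giving a treatment, and the study describes them as unimmunised. Peptide, adjuvant and toxin thus differed together with disease between each stage and control, and their parts cannot be told apart. Cells negative for CD11B and CD45 and positive for ACSA-2, the astrocyte surface antigen encoded by Atp1b2, were sorted into 3 populations: GLASTneg and GLASTpos cells of the hindbrain and GLASTneg cells of the spinal cord, GLAST being the glutamate transporter encoded by Slc1a3. Each of the 12 groups held 4 to 6 libraries. The second table held 5 populations of FVB/N mice labelled as controls and primary neonatal C57BL/6J astrocytes in culture, each with 3 libraries, the cultured cells being those left in the flask after microglia had been grown with conditioned medium and shaken off. RNA of a pair of mice was sometimes pooled. The titles of the EAE libraries carry numbers, some of them in pairs, that recur across the populations of a stage, and 49 pairs of libraries from different populations shared one. The labels do not say what these numbers mark, so libraries of different populations may not be independent, and p-values measure the spread between libraries.

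Total counts ran from 1313682 to 4895220 in the EAE libraries, so that 3 counts, taken as the floor of detection for counting error alone, corresponded to 0.634 to 2.44 CPM (counts scaled to library size). Levels are given as CPM after TMM scaling, and a gene was called changed when its Benjamini-Hochberg adjusted p over all genes in edgeR's quasi-likelihood test was under 0.05 and its log2 fold change was beyond 1 in either direction. The sort removed CD11B- and CD45-positive cells, and yet markers of other cells differed between groups. In the spinal cord, the summed level of 9 astrocyte markers was 11244 to 16038 CPM in controls and 402 to 1766 CPM at score 4, while 10 oligodendrocyte markers summed to 13915 to 40163 CPM and 28581 to 72647 CPM in the same groups. The labelled cell type was therefore weakly represented by its summed markers in the spinal cord at score 4. The same held in chronic disease (556 to 1347 CPM). Gfap, among the 9, took another course, averaging 48.8, 193, 105 and 45.7 CPM from controls through score 1 and score 4 to chronic disease. Over the same groups Aqp4 averaged 955, 694, 83.8 and 59.5 CPM and Slc1a3 179, 94.3, 30.8 and 31.8 CPM. The spinal cord libraries of score 1 were mixed. Replicate 2 held 20260 CPM of the astrocyte markers, above every control, and the others 3069 to 7370 CPM. That library also held the least oligodendrocyte RNA of its group by these markers (25542 CPM). In these bulk libraries a change in the share of a cell type and a change in RNA per cell cannot be told apart.

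One spinal cord library of score 4, replicate 2, stood apart from the rest of its group in myeloid markers. Its 12 general myeloid markers summed to 4476 CPM, against 99.8 to 241 CPM in the other 5 libraries, and its 9 markers of infiltrating monocytes and neutrophils summed to 3127 CPM, against 42.9 to 116.5 CPM. The spinal cord library of score 1, replicate 1, is named as spinal cord in its title and as hindbrain in another field, and its summed level of 18 Hox genes of paralogue groups 5 to 10 was 357 CPM, within the range of the spinal cord libraries of score 1 (210 to 514 CPM) and above that of all hindbrain libraries of the EAE table, which did not exceed 34.7 CPM.

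The members lie on 4 chromosomes of GRCm38, all on the minus strand in the GENCODE M21 annotation. C1qa (ENSMUSG00000036887), C1qc (ENSMUSG00000036896) and C1qb (ENSMUSG00000036905) are neighbours on chromosome 4, between positions 136880129 and 136898803. C4b (ENSMUSG00000073418, 34728380 to 34743882), Cfb (ENSMUSG00000090231, 34856374 to 34862518) and C3 (ENSMUSG00000024164, 57203970 to 57228136) are on chromosome 17, Serping1 (ENSMUSG00000023224) on chromosome 2 and C3ar1 (ENSMUSG00000040552) on chromosome 6. The promoters of the neighbouring C1qb and C1qc, which moved together below, and of C3 are printed because the report compares C3 with the C1q genes. They run from 250 bases before to 50 bases after the RefSeq start on GRCm38.p6, minus strand, 5′ to 3′, at chr4:136886151-136886450, chr4:136892865-136893164 and chr17:57228087-57228386. RefSeq promoters were at hand for these and for C3ar1.
C1qb: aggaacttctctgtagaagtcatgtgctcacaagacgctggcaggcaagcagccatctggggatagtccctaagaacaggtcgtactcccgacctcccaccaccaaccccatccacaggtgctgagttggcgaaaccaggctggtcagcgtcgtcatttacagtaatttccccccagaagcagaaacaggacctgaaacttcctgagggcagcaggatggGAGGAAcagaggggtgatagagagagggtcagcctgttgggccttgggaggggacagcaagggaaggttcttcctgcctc
C1qc: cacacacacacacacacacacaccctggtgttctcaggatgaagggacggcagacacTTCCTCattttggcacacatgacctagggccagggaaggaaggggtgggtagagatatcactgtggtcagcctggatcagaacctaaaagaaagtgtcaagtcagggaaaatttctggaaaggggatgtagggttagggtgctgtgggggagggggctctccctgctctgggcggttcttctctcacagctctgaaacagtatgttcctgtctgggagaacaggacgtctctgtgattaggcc
C3: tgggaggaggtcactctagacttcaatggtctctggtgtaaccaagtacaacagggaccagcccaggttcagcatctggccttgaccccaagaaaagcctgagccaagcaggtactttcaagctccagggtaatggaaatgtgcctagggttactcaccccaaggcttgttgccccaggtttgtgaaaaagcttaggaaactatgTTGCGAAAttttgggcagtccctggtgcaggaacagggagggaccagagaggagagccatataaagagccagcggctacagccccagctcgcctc
Capitals mark matches on either strand to 5 motifs searched: GAGGAA, the core bound by the myeloid factor PU.1, TTGCNNAA of C/EBP factors, TTCNNNGAA of STAT factors, the interferon-stimulated response element and the NF-kB site. C1qb and C1qc each held 1 GAGGAA match, a motif found in 28.3% of 32851 promoters, and C3 held 1 TTGCNNAA match, found in 10.8%. The other 3 motifs (8.30%, 3.44% and 1.47% of promoters) had no match in these windows, and C3ar1 had none of the 5.

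C4b, the classical-pathway component cleaved by C1s, was higher than control in all 3 populations and at all 3 stages of disease, and it was the only member called in all 9 of these comparisons. In the hindbrain GLASTneg control libraries it was at 39.1, 22.5, 51.3, 26.3 and 32.6 CPM. It lay at 330, 528 and 615 CPM (lowest, median and highest of 6 libraries) at score 1, at 580, 672 and 1075 CPM at score 4 and at 154, 218 and 511 CPM in chronic disease. No diseased library overlapped the controls at any stage. The log2 fold changes were 3.89 ± 0.41 (SE), 4.45 ± 0.42 and 2.94 ± 0.40, with adjusted p of 1.29e-08, 1.95e-10 and 3.48e-05. With limma-voom, an alternative chosen after seeing the data, 6 of the 9 calls held, while those of chronic GLASTneg cells (2.92, adjusted p = 0.200) and of GLASTpos cells at score 1 (5.21, adjusted p = 0.0568) and in chronic disease (4.12, adjusted p = 0.140) did not.

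In hindbrain GLASTpos cells C4b started lower, at 2.45, 6.82, 0.326, 3.81 and 14.5 CPM in the controls, a log2 difference of -2.49 ± 0.54 from the GLASTneg controls (adjusted p = 0.000499, 7.4% of 23324 genes called lower), which limma-voom did not call (adjusted p = 0.154). It rose to 49.9, 167 and 315 CPM at score 1 and to 148, 262 and 405 CPM at score 4, and it stood at 123, 47.7, 67.4 and 50.1 CPM in the 4 chronic libraries. Again the groups did not overlap, and the log2 fold changes were 4.85 ± 0.48, 5.48 ± 0.48 and 3.56 ± 0.51. Spinal cord controls lay at 4.96, 24.3, 23.5, 19.2 and 21.1 CPM, above the GLASTpos controls by 1.67 ± 0.56 on the log2 scale (adjusted p = 0.0255, 9.7% of genes called higher), a call lost with limma-voom (adjusted p = 0.386) and when any 1 of 5 of the 10 libraries was left out. The sample number in the library's name was below 57 in every hindbrain GLASTneg library. It was above 57 in every GLASTpos library and every spinal cord control. Differences of hindbrain GLASTneg cells from GLASTpos cells, or from spinal cord cells among controls, therefore cannot be told apart from this number.

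The highest C4b levels of the study were in the spinal cord at score 4, at 959, 1202 and 1582 CPM, after 401, 208, 893, 709 and 576 CPM at score 1 and before 506, 671 and 969 CPM in chronic disease. These were log2 fold changes over control of 4.86 ± 0.44, 6.02 ± 0.45 and 5.15 ± 0.44, and 5.72 at score 4 in a fit that also held, as a term, whether the sample number in the library's name was 57 or above, which all spinal cord controls had and 1 of 6 score 4 libraries had. The library with the most myeloid RNA held the least C4b of its group (959 CPM, against 1300 ± 272 CPM, SD, in the other 5). The margin was small, since the lowest of the other 5 held 964 CPM. Without the library rich in myeloid RNA the score 4 change was 6.08. Summed oligodendrocyte markers were higher and summed astrocyte markers lower in the same libraries, with the values given above, and their part in the C4b level was not tested. Ordered by mean, the 12 groups ran from 1243 CPM in the spinal cord at score 4 to 5.58 CPM in GLASTpos controls, and each neighbouring pair in that order overlapped.

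C4b fell from score 4 to chronic disease in both hindbrain populations, by 1.51 ± 0.33 on the log2 scale in GLASTneg cells (adjusted p = 0.0252, lost on leaving out any 1 of 5 libraries) and by 1.92 ± 0.39 in GLASTpos cells (adjusted p = 0.000735). For spinal cord cells the difference was -0.87 ± 0.32 and was not called (adjusted p = 0.0874). The chronic-stage change over control was larger in the spinal cord than in hindbrain GLASTneg cells by 2.21 ± 0.57 log2 units in the test of the difference itself (adjusted p = 0.00604, 1.41% of genes called higher). With libraries that share a title number held as a block in edgeR, a fit chosen after seeing the data, the difference was 2.37 (adjusted p = 0.0224), and limma-voom gave 2.25 without calling it (adjusted p = 0.277). At score 4 the same difference was 1.57 ± 0.56 (adjusted p = 0.0749). Sample numbers were below 57 in all hindbrain GLASTneg libraries and above it in all spinal cord controls. Spinal cord libraries of score 4 and of chronic disease lay on both sides. The part of this number in these differences was not tested.

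C4b has a near copy, C4a, in the same region, and 38.1% of the 50-base windows in the last 500 bases of the C4b transcript, where 3′-end reads fall, were also found in a C4a transcript. Reads of the pair could be split or set aside in counting, so C4b counts are uncertain to that extent. C4a moved with it, from 0.898 ± 1.07 CPM (SD, n = 5) in spinal cord controls to 71.9 ± 24.4 CPM (n = 6) at score 4.

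**Figure D1:**
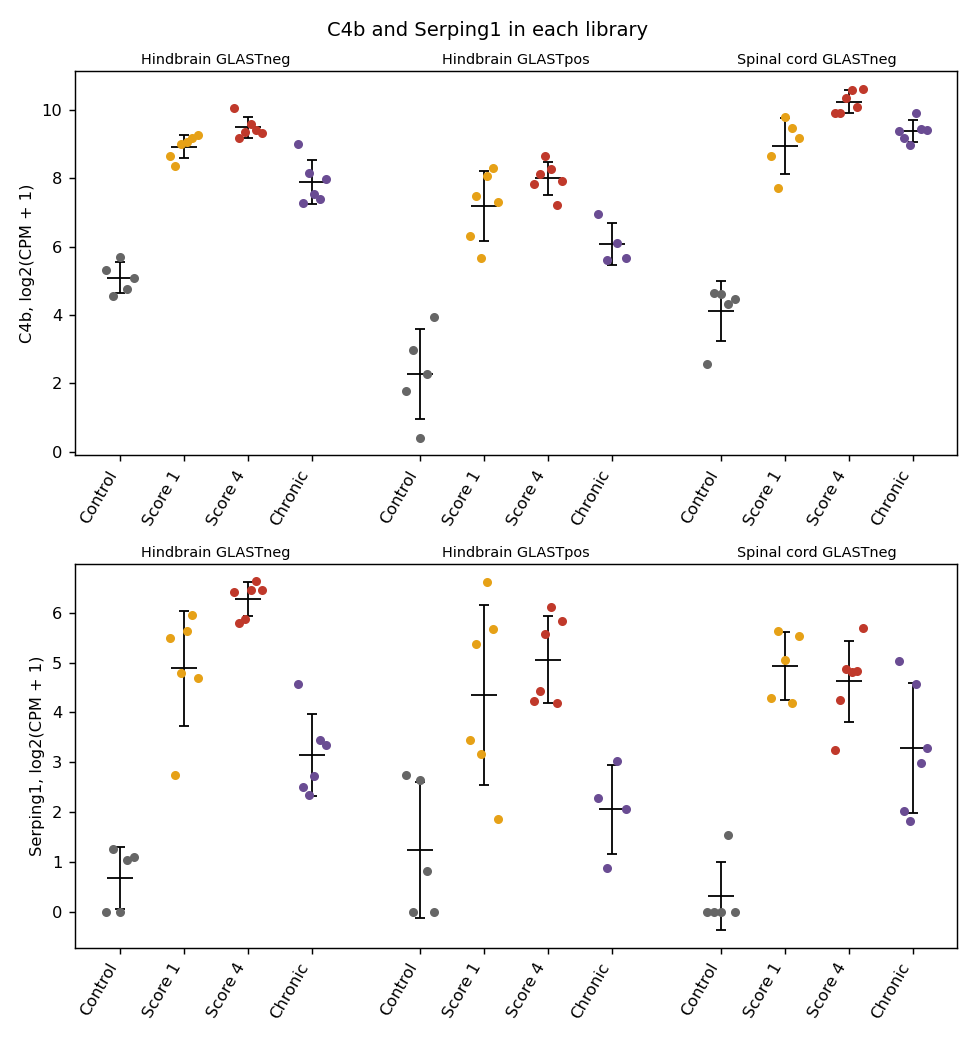
Levels of C4b (top) and Serping1 (bottom) in each of the 66 EAE libraries, as log2(CPM + 1), by population and stage, with a bar at the group mean and whiskers of 1 SD. All diseased libraries lie above the controls of their population for C4b, and Serping1 lies lower in chronic disease than at score 4 in the hindbrain.

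Serping1 encodes the C1 inhibitor, which blocks the C1r and C1s proteases, and it was the other member called at an early stage in all 3 populations. Hindbrain GLASTneg controls held 0, 1.38, 0, 1.04 and 1.12 CPM, 8 counts in all. Levels rose to 5.70, 35.4 and 60.8 CPM at score 1 and 54.4, 85.97 and 97.9 CPM at score 4, log2 fold changes of 5.56 ± 1.00 and 6.63 ± 0.92. Since so few control counts stand behind these folds, the ratio of pooled counts at score 4 was 105 with a 95% counting interval of 53.2 to 244.

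Serping1 then fell in chronic disease, by 3.01 ± 0.53 log2 units in GLASTneg cells (adjusted p = 0.00156) and by 3.27 ± 0.70 in GLASTpos cells (adjusted p = 0.000929). In GLASTpos cells its levels were 5.72, 0, 5.22, 0.762 and 0 CPM in controls, 2.61, 25.1 and 97.6 CPM at score 1, 17.3, 33.6 and 67.9 CPM at score 4, and 3.83, 0.828, 7.10 and 3.19 CPM in chronic disease. The chronic and control libraries overlapped there, and the score 1 libraries overlapped the controls too. The spinal cord reached 18.4, 48.3, 31.998, 17.1 and 45.3 CPM at score 1 from 6 counts in the 5 controls, and 8.46, 27.4 and 51.1 CPM at score 4. There Serping1 was still called higher in chronic disease (4.71 ± 1.20, adjusted p = 0.00198), and the fall from score 4 was not called (-1.14 ± 0.53, adjusted p = 0.222).

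The C1q genes encode the 3 chains of the recognition molecule. In hindbrain GLASTneg cells the C1qa level was 27.6, 18.4, 15.3, 31.5 and 7.87 CPM in controls, 54.1, 89.0 and 120 CPM at score 1, 42.9, 98.8 and 216 CPM at score 4 and 85.95, 105 and 139 CPM in chronic disease. No diseased library reached down to the controls, and C1qc behaved likewise, at no more than 12.3 CPM in controls and no less than 19.6, 23.3 and 23.9 CPM at the 3 stages. By the call rule, however, only C1qb (2.88 ± 0.76, adjusted p = 0.0485) and C1qc (2.97 ± 0.74, adjusted p = 0.0285) were called, at score 4, while C1qa had an adjusted p of 0.211, 0.0622 and 0.361 at the 3 stages. Both calls were lost on leaving out single libraries and with limma-voom (adjusted p = 0.0801 and 0.0700). With hindbrain GLASTneg cells fitted alone 6 members were called at each stage. The share of all genes called in that fit is not given here, so this count is not set against a background.

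Microglial and general myeloid markers are set beside these values. In hindbrain GLASTneg cells 10 microglial markers, among them P2ry12 and Tmem119, summed to 129 to 181 CPM in controls and to 126 to 252, 131 to 229 and 149 to 237 CPM at the 3 stages, so these ranges overlapped. None of the 10 was at 0 in every control library. From controls through score 1 and score 4 to chronic disease, Cx3cr1 averaged 13.2, 27.2, 25.03 and 38.5 CPM and Olfml3 3.60, 6.66, 5.59 and 9.02 CPM. Over the same groups P2ry12 averaged 7.55, 6.37, 9.04 and 8.87 CPM and Tmem119 1.89, 2.33, 3.90 and 3.87 CPM. The 12 general myeloid markers moved with C1q, from 36.5 to 105 CPM in controls to 111 to 373, 137 to 599 and 196 to 348 CPM. Their part in the C1q levels was not tested.

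In hindbrain GLASTpos cells no C1q gene was called at any stage. The summed level of the 3 genes was 30.7 ± 13.2 CPM (SD, n = 5) in controls and 64.5 ± 22.2, 82.7 ± 38.6 and 68.03 ± 21.02 CPM in disease, and all log2 fold changes lay between 0.71 and 1.79. Microglial markers summed to 24.3 to 50.9 CPM in these controls and to 27.9 to 58.1, 36.6 to 79.97 and 39.0 to 77.7 CPM at the 3 stages. The general myeloid markers went from 28.2 to 99.2 CPM in controls to 89.997 to 734.5, 118 to 886.5 and 62.6 to 195 CPM. T cell markers were high in some of these libraries, up to 835 CPM at score 4 against 8.16 CPM or less in controls. The part of these cells in the GLASTpos values was not tested.

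Spinal cord cells had all 3 C1q genes called at score 4, with log2 fold changes of 4.75 ± 0.72 for C1qa, 6.39 ± 0.95 for C1qb and 4.90 ± 0.85 for C1qc. The 6 libraries held 51.3, 1200, 73.7, 81.7, 33.9 and 43.1 CPM of C1qa, and the controls 12.4, 1.31, 11.5, 3.45 and 19.7 CPM. The highest value belonged to the library rich in myeloid RNA, and without it the changes were 2.64, 4.42 and 3.54, all still called. The difference in the score 4 response between spinal cord and hindbrain GLASTpos cells was 5.07 ± 1.38 for C1qb and 3.42 ± 0.96 for C1qa (3.32% of genes called higher), but 3.10 and 1.30 without that library, and only C1qb was then called. With libraries sharing a title number as a block in edgeR, neither difference was called (3.80 for C1qb, adjusted p = 0.0713, and 1.78 for C1qa, adjusted p = 0.397), and limma-voom called C1qb alone (3.94, adjusted p = 0.0125). Sample numbers were above 57 in all GLASTpos libraries and spinal cord controls but below it in most spinal cord libraries of score 4. The part of this number in the differences was not tested.

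Around score 4 in the spinal cord the movement of most members hung on that single library. From score 1 to score 4, C1qa, C1qb, C3, C3ar1 and C4b were called higher (5 of 8 members, 1.16% of all genes), and from score 4 to chronic disease C1qa, C1qb, C1qc, C3 and C3ar1 were called lower (5 of 8, 1.94% of all genes). Without replicate 2, and likewise with limma-voom on all libraries, the counts were 1 and 0. C4b was the member still called higher at score 4 than at score 1 (1.23 without replicate 2, adjusted p = 0.0242), although leaving out replicate 1 or replicate 2 of score 1 in place of it also ended that call. Replicate 2 of score 1, the library with the most astrocyte markers, held the least C4b of its group (208 CPM).

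C3, the component on which all pathways converge, was low throughout the EAE libraries. Hindbrain GLASTneg controls held 4 counts in all (at most 1.12 CPM), and the diseased libraries lay at 0, 6.19 and 14.03 CPM at score 1, 8.02, 14.7 and 48.8 CPM at score 4 and 4.22, 8.68 and 20.6 CPM in chronic disease. The score 4 and chronic groups did not overlap the controls, with pooled ratios of 44.5 (95% counting interval 17.2 to 165) and 27.3 (10.5 to 101), yet neither was called across all genes (adjusted p = 0.202 at score 4), and limma-voom called the score 4 change (4.64, adjusted p = 0.00137). All 5 GLASTpos controls were at 0. The means of 2.94 CPM at score 1 and 3.15 CPM at score 4 were 3.04 and 3.25 times the mean floor of 3 counts per control library. The medians were 1.84 and 2.10 CPM, and 1 of 6 libraries at score 1 and 3 of 6 at score 4 held no counts. Neither change was called in the edgeR test (adjusted p = 0.504 and 0.342).

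Spinal cord C3 was at 7.44, 0, 3.44, 0 and 6.55 CPM in controls and at 5.64, 235, 3.89, 8.95, 7.96 and 15.5 CPM at score 4. It was called at that stage (3.85 ± 0.93, adjusted p = 0.00113), but without the library rich in myeloid RNA the change was 1.41 and was no longer called (adjusted p = 0.244). C3ar1, the receptor for the C3a fragment and chiefly a gene of myeloid cells, followed the same course, with 65.1 CPM in that library and 1.30 to 5.06 CPM in the other 5. Its change of 4.65 ± 1.10 became 2.51 (adjusted p = 0.185) without it. In GLASTpos cells C3ar1 fell by 4.10 ± 1.24 from score 4 to chronic disease, where 1 score 4 library held 27.7 CPM and the other score 4 libraries no more than 3.48 CPM, a call lost with limma-voom (adjusted p = 0.221).

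Cfb, the alternative-pathway protease that joins C3b in its convertase, had 16 counts in the 66 EAE libraries, 9 of them in the spinal cord library rich in myeloid RNA. Its exons overlap those of Gm20547 on the same strand over 77.6% of the last 500 exonic bases, and reads shared by both genes are set aside by the counting mode used, so the level of Cfb could not be read from these counts.

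**Figure D2:**
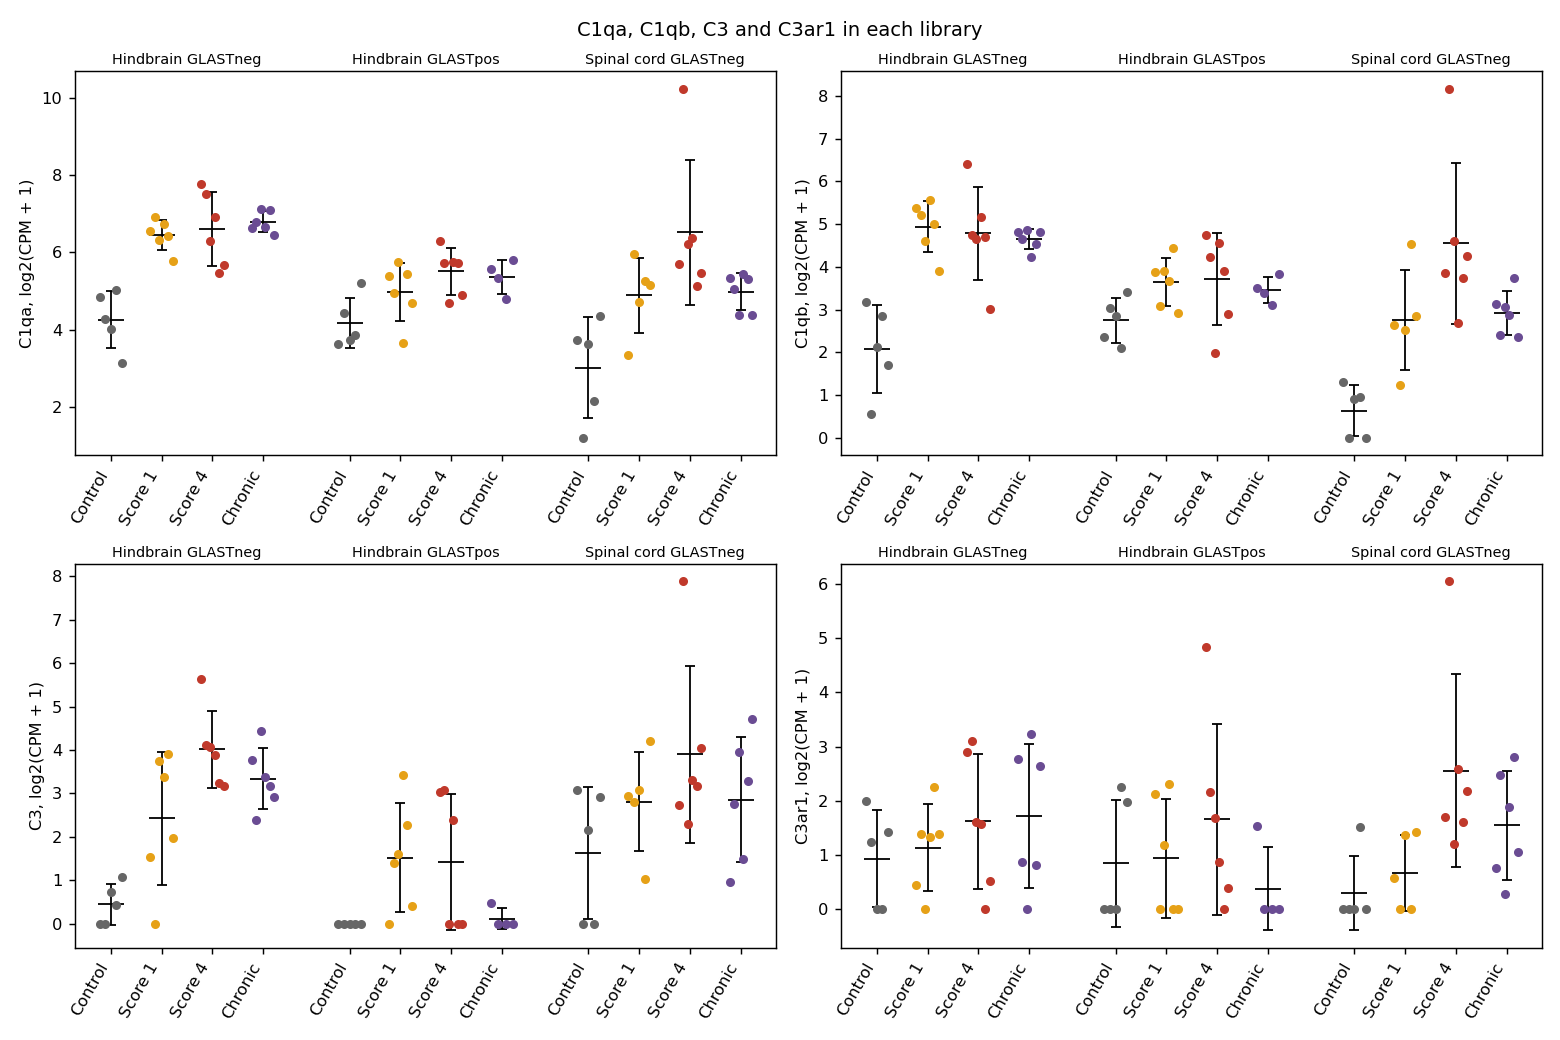
Levels of C1qa, C1qb, C3 and C3ar1 in each of the 66 EAE libraries, as log2(CPM + 1), by population and stage, with a bar at the group mean and whiskers of 1 SD. In the spinal cord at score 4, 1 library (replicate 2, with 1200 CPM of C1qa and 235 CPM of C3) lies above the other 5 in all 4 panels.

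By stage against control, members were called higher as follows, and none lower. In hindbrain GLASTneg cells there were 2, 4 and 1 of 8 at score 1, score 4 and chronic disease, where 0.54%, 0.617% and 0.0472% of all genes were called higher. In hindbrain GLASTpos cells there were 2, 2 and 1, against 1.12%, 2.01% and 1.97% of all genes. Among spinal cord comparisons there were 3, 7 and 4, against 2.79%, 7.19% and 6.51%, and the 7 became 5 without the library rich in myeloid RNA and 4 with the sample number as a term. With that term C1qa, C3 and C3ar1 were not called at score 4 (adjusted p = 0.0560, 0.253 and 0.359), nor C1qc at score 1 (0.130), nor C1qb and C1qc in chronic disease (0.238 and 0.0743). The calls in the falls from score 4 to chronic disease were 2 of 8 members in GLASTneg cells and 3 of 8 in GLASTpos cells, against 0.129% and 1.77% of all genes. The median log2 fold change of the 8 members ran from 1.00 to 4.83 over the 9 comparisons, and that of all tested genes was 0.00 in each. Genes with no counts in either group, as Cfb in GLASTpos cells, enter with a log2 fold change of 0. They draw the median of all genes to 0, so it is a weak baseline for the members.

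Whether C3 and C4b changed more than C1q was asked within each library, as the log2 ratio of the gene's count to the summed counts of C1qa, C1qb and C1qc. Only the change of this ratio is read, since its level depends on how efficiently each gene is counted. In hindbrain GLASTpos cells the C4b ratio averaged -3.04 ± 1.74 (SD, n = 5) in controls and 1.23 ± 1.21, 1.80 ± 1.06 and 0.022 ± 0.72 at the 3 stages. The groups did not overlap, and the rises of 4.27, 4.83 and 3.06 each had an adjusted p of 0.0390 in an exact two-sided permutation test over 18 comparisons.

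In hindbrain GLASTneg cells the C4b ratio rose by 1.81 at score 4 (exact permutation test, adjusted p = 0.0390) and by 1.39 at score 1 (adjusted p = 0.0557), and in chronic disease it differed from control by 0.20 (adjusted p = 0.721). C4b and C1q were both high there in chronic disease. Spinal cord control ratios spread from -1.84 to 4.05, and the rises of 2.41, 2.23 and 2.80 passed the exact test in chronic disease alone (adjusted p = 0.107, 0.174 and 0.0468). The library rich in myeloid RNA had a C4b ratio of -0.83 at score 4, below the other 5, and without it the rise at score 4 was 3.01 (exact test, adjusted p = 0.0714).

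For C3 no change of the ratio to C1q passed the exact test in any population (adjusted p from 0.0519 to 0.721). The largest was a rise of 2.27 in hindbrain GLASTneg cells at score 4, where controls spread from -7.83 to -3.04 and the score 4 libraries from -4.06 to -2.93. The spinal cord C3 ratio moved by -0.41, -0.66 and -0.44, within the spread of the controls, and the score 4 value was -0.76 without the library rich in myeloid RNA (exact test, adjusted p = 0.582). All 5 GLASTpos controls, 2 of 5 hindbrain GLASTneg controls and 2 of 5 spinal cord controls held no C3 counts. Their ratios rest on the pseudocount of 0.5 and the C1q count alone. The test could therefore not decide whether C3 and C1q changed alike.

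**Figure D3:**
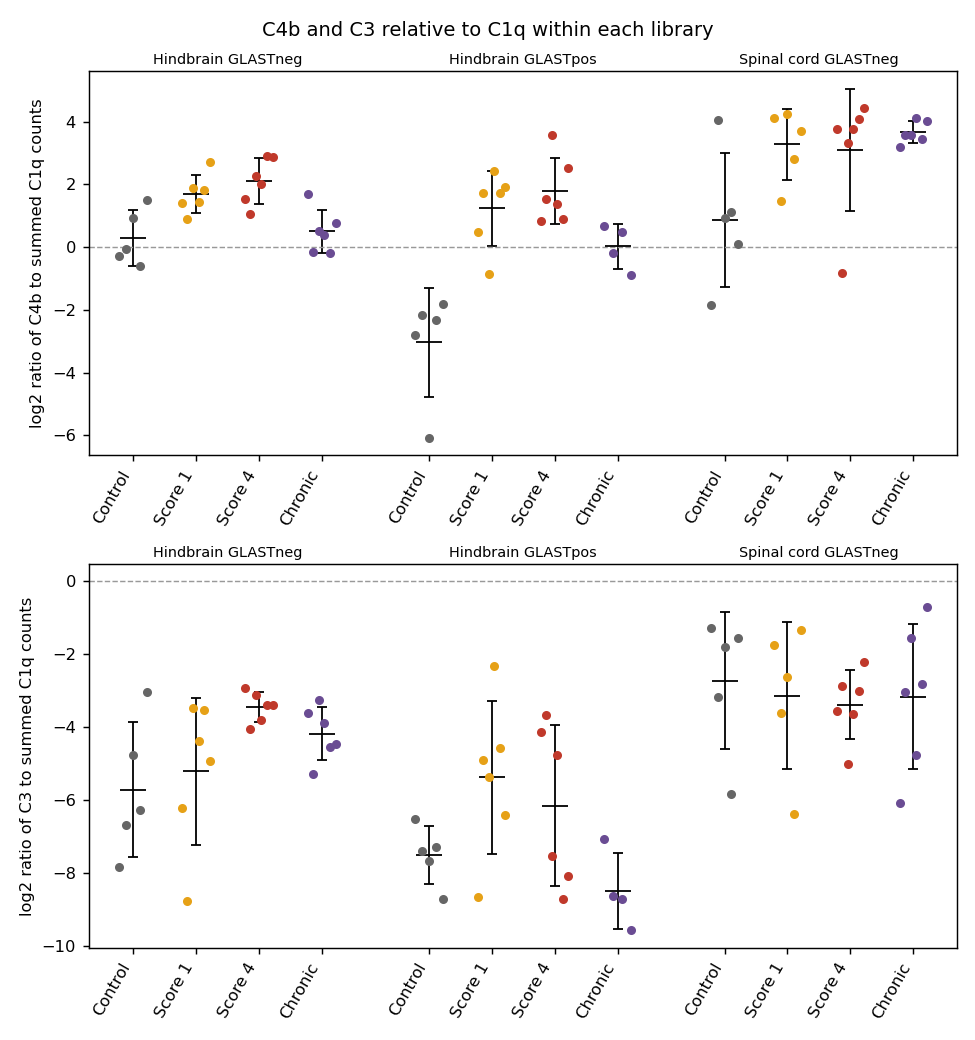
Log2 ratio of C4b (top) and C3 (bottom) counts to the summed counts of C1qa, C1qb and C1qc in each of the 66 EAE libraries, by population and stage, with a bar at the group mean and whiskers of 1 SD. The dashed line marks equal counts, and the C4b ratio of GLASTpos cells lies below it in all 5 controls.

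A second question was whether libraries of one group that hold more C1q also hold more of the other members. With group means removed, C3 and the mean of the C1q genes were correlated over the 66 EAE libraries (Pearson r = 0.48, Spearman rho = 0.33, permutation p = 0.00596 and 0.0155, adjusted over 5 relations 0.0298 and 0.0466). Without the 2 libraries farthest from the median in C1q, both of the spinal cord, r was 0.37 (adjusted p = 0.0537 by permutation), and without the library rich in myeloid RNA alone it was 0.26 (adjusted p = 0.364 by permutation). Within the 44 hindbrain libraries r was 0.49 (permutation, adjusted p = 0.0173), and within the 22 spinal cord libraries it was 0.48 (adjusted p = 0.277).

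For C4b the same correlation was -0.016 (rho = 0.064, permutation p = 0.889 and 0.628), and for Serping1 it was -0.046 (rho = -0.077, permutation p = 0.690 and 0.548). C3ar1 gave r = 0.40 with an adjusted permutation p of 0.0522, and 0.16 without the library rich in myeloid RNA. The points share library depth and cell make-up within a library, and the correlations of C3 and C4b with C1q were not tested against each other.

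**Figure D4:**
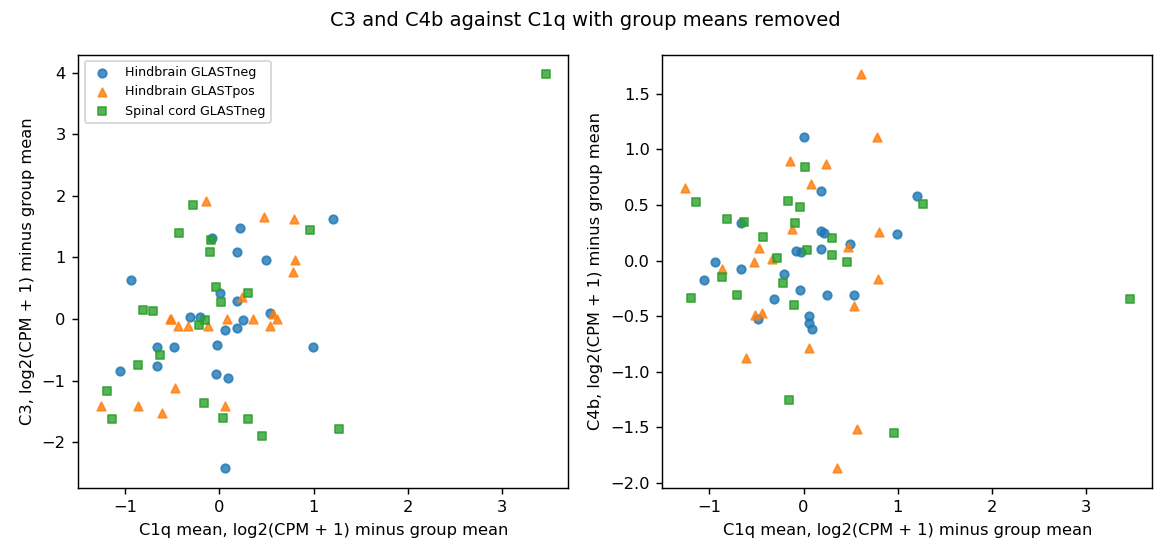
C3 (left) and C4b (right) against the mean of C1qa, C1qb and C1qc in the 66 EAE libraries, each as log2(CPM + 1) minus its group mean, with symbols for the 3 populations. The point at the far right of both panels is the spinal cord library of score 4 rich in myeloid RNA, which is high for C3 and below its group mean for C4b.

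As a description of pattern over the 66 libraries, with groups included, the 5 genes among 10966 with the highest Pearson r of log2(CPM + 1) to each member were listed. For C4b they were Rtp4 (0.91), Iigp1 (0.91), Gbp7 (0.90), B2m (0.90) and Oasl2 (0.89), which are known as interferon-induced genes. For C3 they were H2-DMb1 (0.75), H2-Eb1 (0.73), H2-Ab1 (0.71), H2-Q7 (0.69) and H2-Aa (0.69), genes of the major histocompatibility complex. For the C1q mean they were Ctss (0.90), Fcgr3 (0.83), Aif1 (0.81), Cd300lf (0.79) and Ly6e (0.79), of which Ctss, Fcgr3 and Aif1 are known from microglia and other myeloid cells. Without the library rich in myeloid RNA the same 5 genes came first for C4b and for the C1q mean (Ctss 0.88), whereas for C3 the highest r was 0.70 (H2-Q7) and C4a and H2-K1 took the places of H2-Ab1 and H2-Aa.

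Of 47 other complement genes listed by role, 35 passed the filter in the EAE table. In the spinal cord 3, 5 and 3 of the 35 were called higher and 3, 4 and 3 lower at the 3 stages. Of all genes, 4.78%, 10.9% and 9.89% were called lower there, and the shares called higher are those given above. At score 4 and in chronic disease the counts called lower lay near those shares, so the falls named below are read gene by gene. In the hindbrain 0 to 2 of the 35 were called higher and 0 lower, where 1 to 118 of 23324 genes were called lower. Without the library rich in myeloid RNA 3 were called higher and 4 lower in the spinal cord at score 4. With limma-voom 3, 5 and 2 were called higher and 1, 4 and 4 lower at the 3 stages, so not all calls named below held at score 1. Clu, the fluid-phase inhibitor clusterin and an abundant astrocyte gene, fell in the spinal cord from 677 CPM in controls to 59.6 CPM at score 4 (-3.50 ± 0.25) and held 1958 and 2165 CPM in the same groups of hindbrain GLASTneg cells. Cd59a, which blocks the membrane attack complex, rose in the spinal cord by 1.79 ± 0.34, 1.46 ± 0.33 and 2.30 ± 0.33. C1ra, the protease that works with C1q, rose in the spinal cord at score 1 (3.58 ± 1.13) and score 4 (3.17 ± 1.18, but 2.85 and not called without the library rich in myeloid RNA, adjusted p = 0.101), and Cd46, a membrane cofactor, fell at all 3 stages (-2.20 ± 0.65, -3.06 ± 0.71 and -4.06 ± 0.77).

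The remaining genes called in the spinal cord were C4a (higher at all 3 stages), Csmd1 (lower at score 1), Susd4 (lower at score 4), Cr2 (lower at score 4 and in chronic disease), Cd59b (higher in chronic disease) and the complement receptor 3 genes Itgam and Itgb2 (higher at score 4). Csmd1 had a median of 3.45 CPM in the spinal cord controls, with 22.96 CPM in the highest library, and 0.843 CPM at score 1. Itgam, which encodes CD11B, was at 520 CPM in the library rich in myeloid RNA and at 5.46 to 9.03 CPM in the other 5 of its group. Without that library Itgam was still called (2.32, adjusted p = 0.0194) and Itgb2 was not (6.14, adjusted p = 0.0579). Of the genes at 20 CPM or more in some group, C1qbp and Cr1l were not called in the spinal cord, while Hc, C2 and Vtn reached that level in the subtype table. Hc, the gene of component C5, averaged 91.7 CPM in culture and was higher there than in isolated cells (5.06 ± 0.40), and C2 was lower (-2.83 ± 0.65).

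The second table, of isolated FVB/N and cultured C57BL/6J astrocytes, is read by its labels with a caution. The libraries labelled hindbrain GLASTneg held 853 ± 29.4 CPM (SD, n = 3) of the 18 Hox genes, against 3.73 ± 4.45 CPM in those labelled spinal cord, and those labelled spinal cord held the most Slc1a3 (10454 CPM). By matching values, 12 of the 15 isolated libraries carry another population's name in the authors' supplementary table of normalised values, where the first of these groups is named spinal cord GLASTneg and the second hindbrain GLASTpos.

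In the 3 libraries labelled hindbrain GLASTpos, C1qa was at 41.6, 50.9 and 13.9 CPM, C1qb at 17.9, 34.7 and 4.62 CPM and C1qc at 8.97, 42.8 and 1.85 CPM. Against the mean of the other 4 populations the log2 differences were 1.95 ± 0.49, 2.61 ± 0.64 and 2.64 ± 0.74, all called (3 of 6 members tested, 1.68% of 14957 genes). The authors' supplementary table names these libraries forebrain GLASTpos, and under that name the same 3 calls fell to that population. No C1q gene was called by DESeq2 and 1 by edgeR with a stricter filter, and the lowest library overlapped other populations. Myeloid markers summed to 98.8 to 228 CPM in these libraries, against 2.15 to 82.98 CPM in the other isolated ones, and their part was not tested.

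C4b lay at 0 to 51.1 CPM and C3 at 1.16 to 33.9 CPM in the 15 isolated libraries, with no population called for either. The highest C4b mean, 32.2 ± 19.3 CPM (SD, n = 3), was in the libraries labelled hindbrain GLASTneg and the lowest, 4.47 ± 3.32 CPM, in those labelled spinal cord. Serping1 reached 21.5 CPM in 1 library, C3ar1 had 3 counts in the 15 libraries and Cfb had 0. Total counts there were 416768 to 1269316, so that the floor of 3 counts was 2.45 to 7.05 CPM, and differences below it were not detectable at this depth.

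Cultured neonatal astrocytes held more of all 7 members tested (24.5% of 17126 genes were called higher). C3 lay at 661, 754 and 637 CPM in culture against at most 33.9 CPM in any isolated library, a log2 difference of 6.06 ± 0.22 (adjusted p = 4.62e-28). C4b was at 56.1, 50.6 and 39.4 CPM in culture, a difference of 2.01 ± 0.33, and its range overlapped that of the isolated libraries. The C1q genes varied widely between cultures, with C1qa at 126, 75.9 and 665 CPM, and were higher by 4.61 ± 0.52, 5.09 ± 0.41 and 4.81 ± 0.47. C3ar1 (7.65 ± 0.81) and Serping1 (3.54 ± 0.41) were higher too. The 12 myeloid markers summed to 257 to 2027 CPM in culture, where Cx3cr1 averaged 246 CPM, and their part was not tested. The median log2 difference of all genes was 0.41, and strain, age, culture and RNA extraction differed together, so that their parts cannot be told apart.

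**Figure D5:**
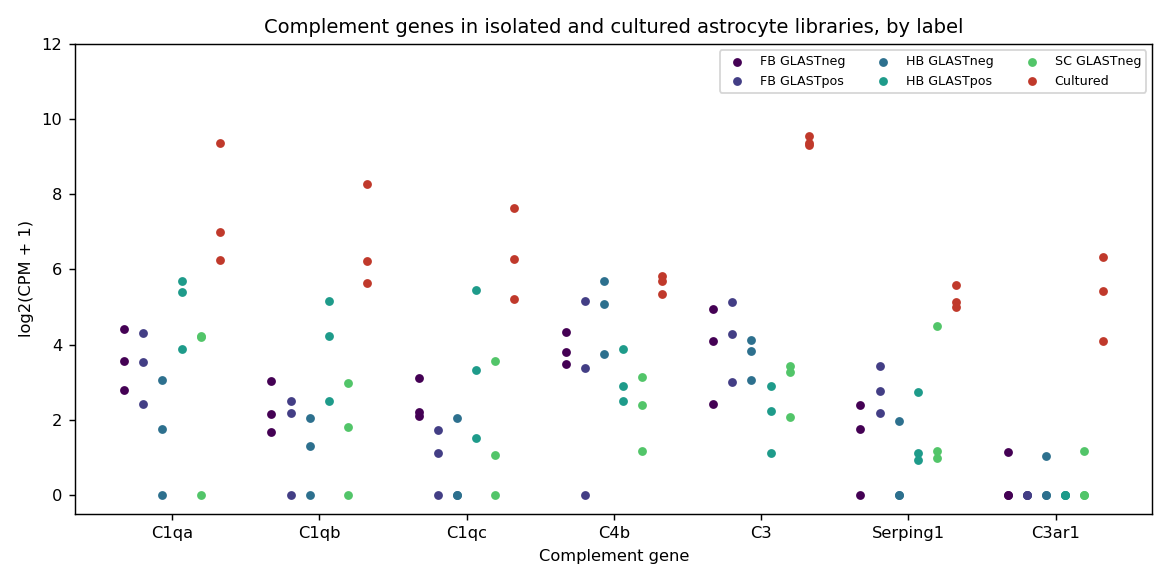
Levels of 7 complement genes in each of the 3 libraries of the 5 isolated populations (FB forebrain, HB hindbrain, SC spinal cord, by label) and of cultured astrocytes, as log2(CPM + 1). C3 lies at 637 to 754 CPM in culture and below 34 CPM in all isolated libraries.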

How the data were processed

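RNA libraries were made with the QuantSeq 3′ mRNA-Seq FWD kit and sequenced as single reads of 50 bases. The authors aligned them to GRCm38 with HISAT 0.1.5 and counted reads per gene with HTSeq 0.6.1p1 in union mode, per the submitters' processing notes and the study's methods, and deposited raw counts per Ensembl gene in 2 tables. The strand setting is not given in the sources used here. Per the deposited counts, 84 libraries in 18 groups were read by their titles, and 0 columns were left unmapped.

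Gene names came from an Ensembl name table. Counts were TMM-scaled and fitted with edgeR 4.0.16 (R 4.3.3; quasi-likelihood test, robust, one mean per group, two-sided) on genes with at least 10 counts, with Benjamini-Hochberg adjustment over all genes. The SE given is the log2 fold change divided by the square root of the F statistic. Ratios to C1q used a pseudocount of 0.5 and exact permutation tests, and correlations used 100000 permutations within groups (Python 3.11.15, scipy 1.17.1). On simulated counts for score 4 against control in the spinal cord (22887 genes), 99% of 100 genes changed by 3 log2 units and 7% of 100 changed by 1 were recovered, with 2 false calls. For 3 against 3 isolated libraries (14615 genes) the shares were 67% and 0%. The changed genes were drawn only from those above a minimum expected count per library. A single fixed dispersion was used for all genes, and the means were otherwise equal in all groups. These shares therefore do not describe members with few counts, such as C3ar1 (590 counts in the EAE libraries) and Cfb (16), or controls near 0.

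The genes named are the 8 members, the other complement genes called in the spinal cord or at 20 CPM or more in any group, and the 5 genes most like C4b, C3 and C1q. The members and lists were chosen with earlier results of these data known. Alternatives were DESeq2 1.42.0, other scalings, filters, a fit of each population alone, a replicate block, a sample-number term, leaving out each library and, chosen after seeing the data, limma-voom (limma 3.58.1) with and without libraries that share a title number as a block, and that block in edgeR. The replicate numbers do not follow the numbers in the titles. Columns of the authors' own comparisons were not used. The supplementary table of normalised values served only to match library names.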

Additional observations from a re-analysis of the deposited data

Results flagged for a closer look

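Of 80 groups of a member's levels tested for a library far from the rest (95% critical value of Dixon's ratio; chance alone would mark some groups), 17 held one. In the spinal cord at score 4, replicate 2 was the highest library for C3 (235 CPM), C1qa (1200 CPM), C1qb (287 CPM), C1qc (218 CPM), Cfb (4.04 CPM) and C3ar1 (65.1 CPM), and not for C4b or Serping1. Replicate 1 of hindbrain GLASTneg cells at score 4 was highest for C3 (48.8 CPM) and C1qb (83.4 CPM), and replicate 1 of their chronic group for C4b (511 CPM) and Serping1 (22.6 CPM). In GLASTpos cells replicate 1 was highest for C3ar1 at score 4 (27.7 CPM) and in chronic disease (1.91 CPM), and control replicate 3 for C1qc (14.4 CPM). In spinal cord controls, replicate 1 was lowest for C4b (4.96 CPM) and replicate 4 was the single library with counts of Serping1 and of C3ar1 (1.88 CPM each). Replicate 4 of score 1 in the spinal cord was highest for C1qb (22.3 CPM).

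The response differed between populations, by a test of the difference itself, for C4b in chronic disease (spinal cord minus hindbrain GLASTneg, 2.21 log2 units) and at score 4 for C1qb (5.07) and C1qa (3.42) in the spinal cord minus hindbrain GLASTpos. With libraries sharing a title number as a block in edgeR, the C4b difference was still called and those of C1qb and C1qa were not. The part of the sample number in these differences was not tested.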

How the results depend on the processing

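The calls of C4b at all 3 stages in all 3 populations, and those of Serping1 against control, held without each library in turn. Limma-voom, with and without title numbers as a block, gave 0, 1 and 0 members for chronic GLASTneg and score 1 and chronic GLASTpos, 1 and 0 for score 4 against score 1 and chronic against score 4 in the spinal cord, 0 and 1 for the chronic and score 4 differences of spinal cord from GLASTneg and GLASTpos, and 0 and 2 for GLASTpos against GLASTneg and spinal cord against GLASTpos controls. The title-number block in edgeR, which can be fitted only between populations, gave 0 for the score 4 difference of spinal cord from GLASTpos and changed no other call of a member. Libraries sharing a title number deviated together weakly (mean r 0.038 over 49 pairs, 8 of them over 0.1, against -0.0056 for 314 other pairs of their stages), and the consensus correlation within a block was 0.037. Numbers of members called changed as follows. The shares of all genes called in the alternative fits are not set beside them, so a larger number need not mark a stronger result. Without the filter on low counts they were 6, 6, 4, 5, 3 and 5 for score 1 and chronic hindbrain GLASTneg, the 3 stages of GLASTpos and score 1 spinal cord, and with populations fitted alone 6, 6 and 2 for score 1 and chronic GLASTneg and chronic spinal cord. With the sample-number term, the spinal cord gave 4 at score 4 and 2 in chronic disease. DESeq2 called 5 and 6 for score 1 and chronic GLASTneg, 5 for score 1 and 3 for chronic against score 4 in the spinal cord, 3 and 1 for the score 4 and chronic differences of spinal cord from GLASTneg and GLASTpos, and 1 and 4 for spinal cord against GLASTneg and GLASTpos controls. The block on replicate number, which does not follow the title numbers, gave 3 members for chronic against score 4 in the spinal cord, and elsewhere stayed within 1.5 times. For the libraries labelled hindbrain GLASTpos, DESeq2 called 0 and filterByExpr 1; under the authors' table names that population had 0 (C1qa -0.045, C1qb -0.45) and forebrain GLASTpos 3. Leaving out single libraries gave 2 to 5 members for score 4 GLASTneg, 1 to 2 for chronic against score 4 there, 1 to 6 for score 4 against score 1 and 0 to 5 for chronic against score 4 in the spinal cord, 1 to 3 for the score 4 difference of spinal cord from GLASTpos, 0 to 1 for spinal cord against GLASTpos controls, 0 to 3 for the labelled hindbrain GLASTpos and 0 to 1 for the labelled hindbrain GLASTneg libraries; without score 4 replicate 2, the C3 change was 0.27 (lowest of the leave-outs -2.69) in chronic against score 4 spinal cord.

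With microglial markers in place of C1q as denominator, the C3 ratio rose by 2.89, 4.67 and 3.83 in GLASTneg, 3.02 at score 1 in GLASTpos and 1.89, 2.77 and 1.84 in the spinal cord (reversed there), and the C4b ratio by 3.78 and 2.49 at score 1 and chronic GLASTneg and 4.70 and 5.66 at scores 1 and 4 in the spinal cord. A pseudocount of 3 turned the C3 ratio at score 1 and chronic GLASTneg to -0.60 and -0.032. Leaving out single libraries gave C3 ratios of -0.024 to 1.21, 1.74 to 2.94 and 1.012 to 2.21 at the GLASTneg stages, 1.52 to 2.79 at score 1 GLASTpos, and -1.19 to 0.40 and -1.21 to 0.15 at score 1 and chronic spinal cord. C4b ratios were 1.17 to 1.70, 1.59 to 2.11 and -0.040 to 0.50 in GLASTneg, 3.51 to 4.69, 4.07 to 5.14 and 2.30 to 3.37 in GLASTpos, and 1.73 to 3.20 and 2.12 to 3.59 at score 1 and chronic spinal cord. The C3 correlation with C1q was 0.37 without the 2 farthest libraries, 0.48 in the spinal cord and 0.26 without score 4 replicate 2; C4b turned to 0.0072, 0.043 and 0.11 without the farthest libraries, without replicate 2 and in the hindbrain, and Serping1 to 0.022 without the farthest libraries and 0.19 with microglial markers. The last 2 library subsets (without replicate 2, hindbrain alone) and scaling by library totals were chosen after seeing the data. The causes were not tested.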
